A study of Mus musculus with 11 samples.

Results

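The haemoglobin and erythroid genes were followed in heart RNA from 11 male mice of 4 groups. They are Hba-a1 and Hba-a2, which encode alpha-globin, Hbb-bs and Hbb-bt, which encode adult beta-globin, Alas2, which encodes the erythroid form of the first enzyme of haem synthesis, and Slc4a1, which encodes the anion exchanger of the red cell membrane. These 6 genes were chosen by their symbols in GENCODE release M21, out of 22608 genes in the count table. Of the 6, 5 passed the filter on low counts that left 11319 genes for testing (a mean of 1 or more on the log2 CPM scale, where CPM is the count scaled to a common library size), and Slc4a1 did not.

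CD mice have lost 1 of the copies of the chromosomal interval that is missing in Williams–Beuren syndrome, and their wild-type (WT) littermates have both. The mice were on a C57BL/6J background and were 8 to 16 weeks old. Vehicle (VEH) or JZL184 at 8 mg/kg was injected daily for 10 days. JZL184 inhibits monoacylglycerol lipase, an enzyme that breaks down an endocannabinoid, and was given to the whole animal. There were 2 WT VEH mice and 3 mice in each of the groups WT JZL184, CD VEH and CD JZL184. The treatment field of the labels calls the controls untreated, whereas their titles give vehicle. The tissue was labelled ventricle. For the ventricles used in cardiac PCR, the methods of the study describe a rinse of the excised heart in buffered saline before atria and large vessels were cut away, and the same is not stated separately for the sequenced hearts.

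Red blood cells of mammals lose their nucleus before they circulate, and the young ones, called reticulocytes, still hold messenger RNA, most of it globin. Adult haemoglobin pairs alpha-globin with beta-globin chains around haem, and erythroid cells raise haem synthesis through Alas2. In a tissue sample such as a heart, these transcripts are known as a mark of the blood left in the vessels and chambers.

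Total counts lay between 69660232 and 92251443 per mouse, at which 3 counts correspond to 0.0306 to 0.0435 CPM. Of 14 tested genes of the deleted interval, 14 separated the genotypes without overlap, with the CD mice below the WT mice. The summed level of 8 cardiomyocyte markers was 34627 to 50305 CPM. Of 4 atrial markers, Myl7, Sln and Myl4 reached no more than 0.521, 0.188 and 1.69 CPM and Nppa, which stressed ventricle also expresses, was at 49.2 to 220 CPM, beside 5866 to 8364 CPM of the ventricular myosin light chain Myl2. The columns of the table name a group and a letter, and mice are called by that letter here. CD VEH mouse A stood apart from the other mice in all 6 genes, so the comparisons between groups are given with and without it.

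The alpha-globin genes lie in 1 cluster, with Hbq1b between them, at chr11:32283511-32284465 (Hba-a1) and chr11:32296489-32297298 (Hba-a2), both on the plus strand of GRCm38. The beta-globin genes lie at chr7:103826534-103828096 (Hbb-bs) and chr7:103812524-103813996 (Hbb-bt), both on the minus strand. Alas2 lies at chrX:150547375-150570638 on the plus strand and Slc4a1 at chr11:102348824-102366203 on the minus strand. None of them is in the deleted interval.

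The copies within each globin pair are nearly identical. The coding sequences of Hba-a1 and Hba-a2 are 426 bases long and differ at 1 base (C381T, counted from the first base of the start codon, with Hba-a1 first). Those of Hbb-bs and Hbb-bt are 441 bases long and also differ at 1 base (C417T, with Hbb-bs first). The stretches around these bases are shown because they are the only coding bases by which a read can be assigned to 1 copy, and the capital letter marks the difference.
Hba-a1, coding bases 351 to 410: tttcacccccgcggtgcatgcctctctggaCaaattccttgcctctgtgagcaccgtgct
Hba-a2, coding bases 351 to 410: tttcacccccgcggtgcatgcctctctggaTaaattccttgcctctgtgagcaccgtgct
Hbb-bs, coding bases 382 to 441: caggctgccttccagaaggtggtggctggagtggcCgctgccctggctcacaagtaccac
Hbb-bt, coding bases 382 to 441: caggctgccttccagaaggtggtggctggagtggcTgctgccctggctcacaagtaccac
Over the whole annotated transcripts, 71.3% of the 31-base words of Hba-a1 also occur in Hba-a2, and 66.9% of those of Hbb-bs also occur in Hbb-bt. The split of the estimated counts within each pair is therefore uncertain, whereas the sum of a pair does not depend on that split.

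The stretch upstream of the start site, from RefSeq on GRCm38.p6, matched 5 of the 6 genes. It is shown for 1 alpha-globin gene, 1 beta-globin gene and Alas2, since these genes moved together from mouse to mouse. Each stretch holds the 250 bases before the RefSeq start, 5′ to 3′ on the strand of the gene. Capitals mark matches on either strand to GATAA (the letters read by GATA factors), CCNCNCCC (a form of the CACCC box read by Klf factors), CCAAT and TATAA.
Hba-a2, chr11:32296242-32296491, plus strand: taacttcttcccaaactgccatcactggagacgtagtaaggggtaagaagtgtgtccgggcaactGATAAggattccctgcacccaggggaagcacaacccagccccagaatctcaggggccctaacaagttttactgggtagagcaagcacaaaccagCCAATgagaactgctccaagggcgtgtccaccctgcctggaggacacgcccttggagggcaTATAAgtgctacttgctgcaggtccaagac
Hbb-bs, chr7:103827929-103828178, minus strand: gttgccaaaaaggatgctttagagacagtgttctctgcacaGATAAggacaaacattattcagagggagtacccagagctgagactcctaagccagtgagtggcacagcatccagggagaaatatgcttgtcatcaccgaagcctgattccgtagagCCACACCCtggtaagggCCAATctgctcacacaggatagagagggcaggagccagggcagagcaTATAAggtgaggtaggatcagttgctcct
Alas2, chrX:150547167-150547416, plus strand: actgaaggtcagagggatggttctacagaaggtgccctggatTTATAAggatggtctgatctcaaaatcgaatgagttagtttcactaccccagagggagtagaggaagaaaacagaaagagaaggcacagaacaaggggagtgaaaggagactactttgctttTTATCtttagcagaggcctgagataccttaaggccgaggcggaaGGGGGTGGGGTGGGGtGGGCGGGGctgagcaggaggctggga
GATAA was found in 5 of the 5 matched genes and in 22.6% of all 32851 windows of the same length. TATAA was likewise found in 5 of 5, against 22.8% of all windows, and lay at positions -30 to -26 from the start in Hba-a2 and at -29 to -25 in Hbb-bs. In Alas2 the TATAA letters lay far upstream, at -208 to -203, where matches on both strands overlap. CCAAT was found in 4 of 5 genes, all but Alas2 (33.8% of all windows), and CCNCNCCC in 3 of 5, both beta-globin genes and Alas2 (45.9% of all windows). In Alas2 the 4 matches to CCNCNCCC overlap in part. The Hba-a1 stretch is shifted by a few bases from that of Hba-a2 and is the same in 247 of 247 aligned bases. A match describes letters only.

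In all 6 genes the level in CD VEH mouse A was several times that of every other mouse. Hbb-bs, the gene with the highest level per length, reached 1167 and 935 CPM in WT VEH mice C and D, 1800, 2476 and 1200 CPM in WT JZL184 mice A, B and D, at 9026, 1263 and 936 CPM in CD VEH mice A, C and E, and at 663, 983 and 848 CPM in CD JZL184 mice A, C and E. Leaving out CD VEH mouse A, the highest level was in WT JZL184 mouse B and the lowest in CD JZL184 mouse A, and the WT JZL184 group lay above the WT VEH and CD JZL184 groups without overlap.

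Hbb-bt, the second beta-globin copy, had, in the same order of mice, 178 and 135 CPM for WT VEH, 281, 396 and 178 CPM for WT JZL184, 1494, 201.1 and 139 CPM for CD VEH and 95.6, 157 and 124 CPM for CD JZL184. The lowest WT JZL184 mouse was just below the highest WT VEH mouse, so that these groups overlapped. Hba-a1 was at 375 and 307 CPM in WT VEH, 593, 827 and 413 CPM in WT JZL184, 2594, 440 and 306 CPM in CD VEH and 211, 331 and 266 CPM in CD JZL184. Hba-a2 was at 750 and 640 CPM in WT VEH, 1213, 1772 and 832 CPM in WT JZL184, 5541, 957 and 635 CPM in CD VEH and 437, 705 and 558 CPM in CD JZL184. Both alpha-globin genes thus ordered the mice almost as Hbb-bs did.

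Alas2, which feeds haem to the globin chains, was at 24.1 and 18.5 CPM in WT VEH, 30.6, 41.7 and 21.1 CPM in WT JZL184, 177, 23.5 and 15.2 CPM in CD VEH and 12, 19.1 and 16.3 CPM in CD JZL184. The WT JZL184 and WT VEH groups overlapped, and the WT JZL184 and CD JZL184 groups did not. Slc4a1 was far lower, with 33 and 33 counts in WT VEH, 47, 66 and 30 in WT JZL184, 466, 47 and 19 in CD VEH and 24, 41 and 27 in CD JZL184. These counts correspond to 0.223 to 0.929 CPM in 10 mice and 5.62 CPM in CD VEH mouse A.

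**Figure D1:**
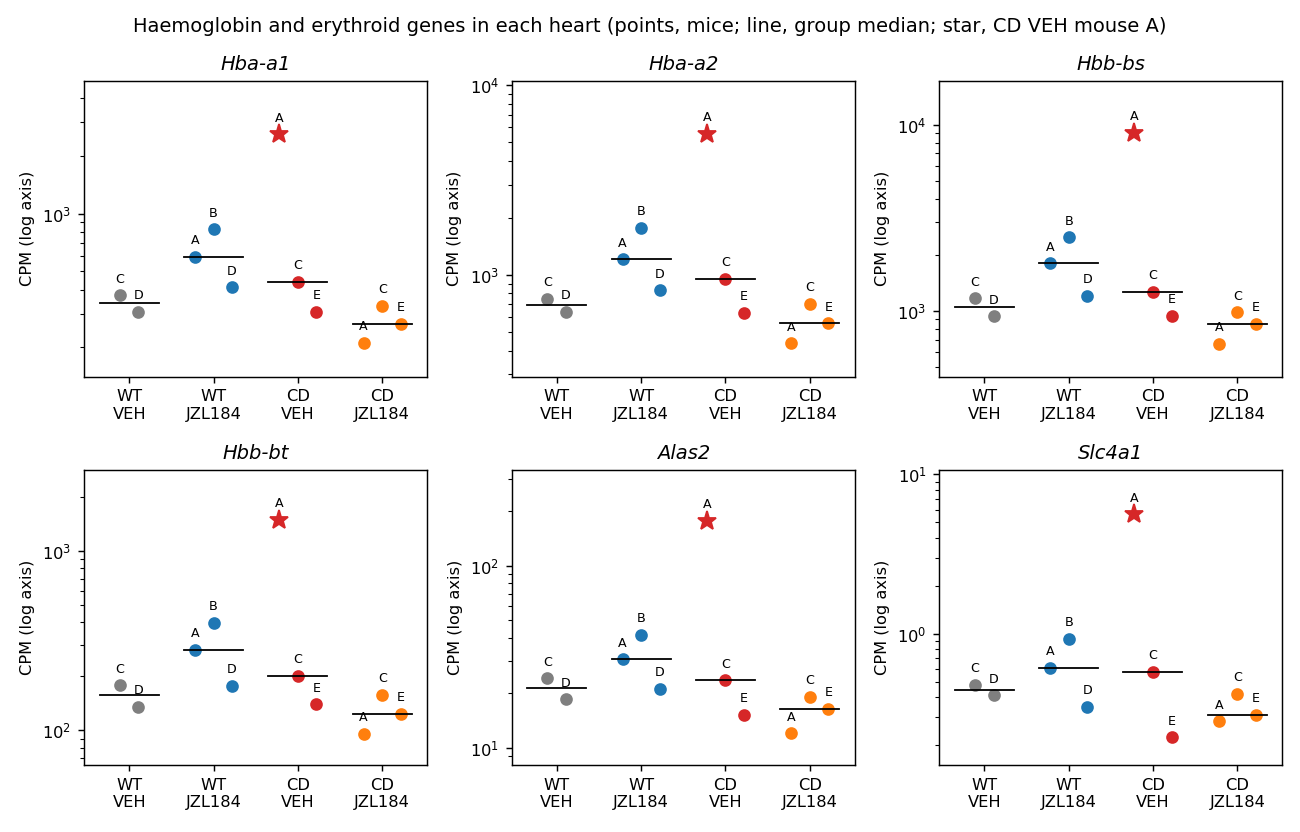
CPM (log axis) of the 6 genes in each heart, by group, with mice as points, the group median as a line and CD VEH mouse A as a star. In every panel CD VEH mouse A lies far above the other 10 mice, from 7.36 times their median for Hba-a1 to 13.6 times for Slc4a1, and WT JZL184 mouse B is second.

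CD VEH mouse A exceeded the median of the other 10 mice 7.36-fold in Hba-a1, 7.62-fold in Hba-a2, 8.40-fold in Hbb-bs, 8.91-fold in Hbb-bt, 8.78-fold in Alas2 and 13.6-fold in Slc4a1. The next highest mouse was WT JZL184 B in each gene, and CD VEH mouse A exceeded it 3.13-fold (Hba-a2) to 6.05-fold (Slc4a1). The 4 globin genes together took 1.79% of all counts in this heart and 0.144% to 0.532% in the other 10. When the tested genes were ordered by the difference in log2 CPM between CD VEH mouse A and the mean of CD VEH mice C and E, the first 5 of 11319 were Alas2 (3.22), Hbb-bt (3.16), Hbb-bs (3.05), Hba-a2 (2.83) and Hba-a1 (2.82). The next were Tent5c (2.61), a poly(A) polymerase abundant in erythroid cells that passed the filter on low values only with this mouse in the table, the exonuclease gene Isg20 (1.98), Bpgm (1.897), whose enzyme makes the red cell metabolite that loosens the hold of haemoglobin on oxygen, and the ubiquitin-conjugating enzyme gene Ube2l6 (1.80). In these bulk samples, more red cells and more RNA per red cell cannot be told apart.

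Among the other mice the spread was also shared. The summed level of the 4 globin genes was 2243 ± 321 CPM (SD, n = 2) in WT VEH, 3993 ± 1427 CPM (SD, n = 3) in WT JZL184, 7845 ± 9372 CPM (SD, n = 3) in CD VEH and 1793 ± 384 CPM (SD, n = 3) in CD JZL184. Without mouse A the CD VEH group stood at 2439 ± 598 CPM (SD, n = 2), close to WT VEH and within the range set by the other groups. The coefficient of variation of the summed level was 120% over the 11 mice and 44.7% over the 10 mice without CD VEH A.

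The ratios between the genes varied far less than their levels. The summed alpha-globin level was 0.773 to 0.954 times the summed beta-globin level, with a coefficient of variation of 5.39% over the 11 mice, and the lowest ratio was in CD VEH mouse A. The counts of Hba-a2 were 2.003 to 2.17 times those of Hba-a1 (coefficient of variation 2.61%) and those of Hbb-bs were 6.04 to 6.94 times those of Hbb-bt (4.83%), ratios that carry the uncertain split between the copies and are not corrected for length. The summed globin level was 103 to 133 times the level of Alas2 (8.83%). The ratio of Alas2 to Slc4a1 counts ranged from 31.4 in CD VEH mouse A to 68 in CD VEH mouse E, where Slc4a1 rested on 19 counts.

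Scaled to the length of the longest annotated transcript, Hbb-bs was at 1056 to 14372 CPM per kb over the 11 mice, Hba-a2 at 789 to 10002, Hba-a1 at 302 to 3711, Hbb-bt at 136 to 2126, Alas2 at 5.89 to 86.7 and Slc4a1 at 0.0491 to 1.24 CPM per kb.

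Over the 11 mice, all 15 pairs of the 6 genes were correlated in log2 CPM (prior count 2), with Pearson's r between 0.963 and 0.999 and Spearman's rho between 0.882 and 1. Hba-a1 with Hba-a2 and Hbb-bs with Hbb-bt are near-identical copies whose split of reads is uncertain, so these pairs do not compare separate measurements. Permutation p-values (100000 resamples, two-sided) were adjusted over the 27 relations computed, and the largest adjusted p among the 15 pairs was 0.000202 for r and 0.00126 for rho. The smallest p these permutations can give is 1e-05. As deviations from the group means, r was 0.986 to 0.9995, with an exact within-group permutation p of 0.00231 for each pair (adjusted p = 0.00417), the smallest that the 432 within-group permutations can give. Without the mice farthest from the median, CD VEH A and WT JZL184 B, r was between 0.763 (Hbb-bs with Slc4a1) and 0.996 (Hba-a1 with Hba-a2). The 5 lowest values after this exclusion were those of the pairs with Slc4a1, which had 19 to 47 counts in the remaining mice.

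The same was asked of 6 genes outside the group, each with Hbb-bs and with Alas2. Ube2l6 followed Hbb-bs (r = 0.959, rho = 0.846, adjusted permutation p = 0.000202 and 0.00348), and r was 0.737 without CD VEH A and WT JZL184 B. For Pf4, the platelet chemokine, r was 0.663 (adjusted permutation p = 0.0145) and rho 0.746 (adjusted permutation p = 0.0172), but r within groups was 0.415 (adjusted exact permutation p = 0.372). For Ppbp, another platelet gene, r was 0.637 (adjusted permutation p = 0.0748) and rho 0.273. For S100a8, a neutrophil gene, r was 0.552 (adjusted permutation p = 0.0839) and rho 0.327. Without the same pair of mice, r fell to -0.0774 for Ppbp and -0.0741 for S100a8, so these relations rested on them. For the B-cell gene Cd79b, r was 0.482 (adjusted permutation p = 0.14) and rho 0.609. For the haem oxygenase gene Hmox1, r was 0.227 (adjusted permutation p = 0.478) and rho 0.609. With Alas2 in place of Hbb-bs, r was 0.944 for Ube2l6 and 0.146 to 0.639 for the other 5 genes.

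By the same measure within groups, the 5 genes most like the summed globin level among the tested genes other than the globins and Alas2 were Isg20 (r = 0.993), Bpgm (r = 0.991), the ubiquitin ligase gene Mkrn1 (r = 0.971), Tent5c (r = 0.968) and Ube2l6 (r = 0.966), over 11 mice. These r values are a description, since all points share their libraries and CD VEH mouse A is among them. Without that mouse r was 0.949, 0.947, 0.796, 0.743 and 0.724, in the same order, and Tent5c would not have passed the filter, so its place here rests on that mouse. The next 5 by rank were Specc1, Pigx, Ccndbp1, Rgs5 and Zfp991 (r = 0.911 to 0.929), and the 5 lowest were Ccdc163, Msl1, Plcl1, Cstf1 and Kdm5c (r = -0.939 to -0.902).

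Isg20 was at 18.4 CPM in CD VEH mouse A and 2.49 to 6.91 CPM in the other mice, and Bpgm at 71.7 CPM against 17.3 to 27.9 CPM. Tent5c was at 10.9 CPM against 1.402 to 2.65 CPM, Ube2l6 at 51.3 CPM against 8.72 to 17.9 CPM and Mkrn1 at 49.5 CPM against 21.6 to 27.8 CPM. CD VEH mouse A was highest in each, with the second place again held by WT JZL184 mouse B.

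**Figure D2:**
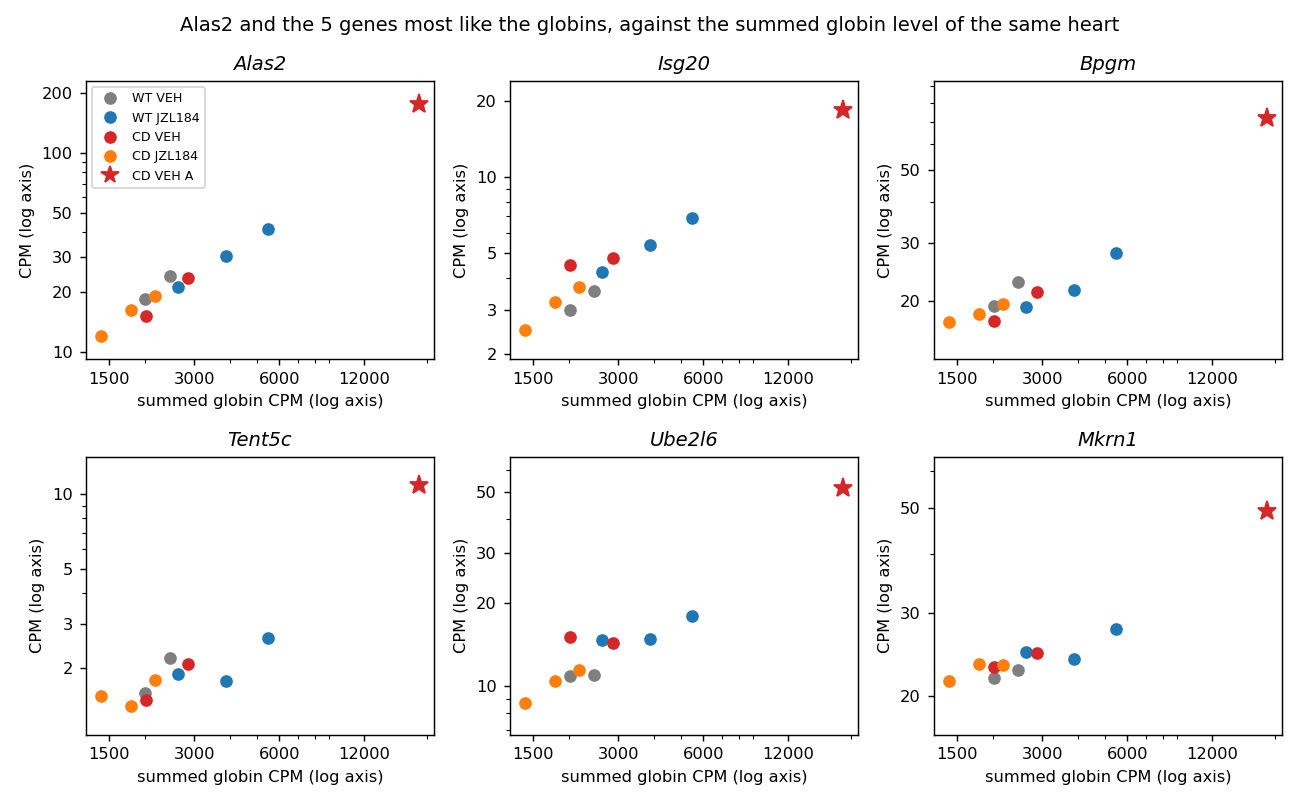
CPM of Alas2 and of the 5 genes most like the globins (y axes, log) against the summed CPM of the 4 globin genes in the same heart (x axis, log), 1 point per mouse, coloured by group, with CD VEH mouse A as a star. Alas2 and Isg20 rise with the globins also among the 10 other mice, whereas Mkrn1, Tent5c and Ube2l6 (r without CD VEH A of 0.796, 0.743 and 0.724 within groups) follow them less closely there.

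Other genes of red cells were read from lists. Of 14 genes of the erythroid membrane and skeleton, 3 were highest in CD VEH mouse A, all of them below the filter. Among them, Kel, a blood group antigen gene, was at 0.253 CPM there and 0 to 0.0281 CPM in the other 10 mice, and Epb42 at 0.554 CPM against 0.0587 to 0.261 CPM. The abundant genes of this list, Ank1 (210 to 274 CPM), Tmod1 (186 to 276 CPM) and Sptb (71.9 to 145 CPM), were not highest in that mouse, and heart muscle expresses them as well.

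Of 25 measured genes of erythroid transcription and maturation, 14 were highest in CD VEH mouse A. These include Isg20, Bpgm, Mkrn1, Tent5c and Ube2l6, already named as most like the globins. The share of all genes that were highest in that mouse is not given here. Genes typical of nucleated erythroid precursors, named after their values were seen, were near 0 in every heart. Klf1 reached 0.0869 CPM, Gata1 0.121 CPM, Hemgn 0.0723 CPM, Trim58 0.0482 CPM and Car1 0.0241 CPM. All of these but Klf1 were highest in CD VEH mouse A and are among the 14, but such low levels cannot rank the mice. Car1 lay below the 0.0306 to 0.0435 CPM that correspond to 3 counts. In the other mice Trim58 reached 0.0368 CPM, Hemgn 0.0497 CPM and Gata1 0.069 CPM. Nfe2 was at 0.289 CPM in CD VEH mouse A and at most 0.141 CPM elsewhere. Other genes of the list, which cells outside the erythroid line also express, were higher in all hearts, such as Tfrc (40.3 to 101 CPM), Lmo2 (14.4 to 21.3 CPM), Tal1 (4.07 to 7.02 CPM) and Epor (0.609 to 1.41 CPM), and none of these was highest in that mouse. Tspo2, a late erythroid gene, was at 1.07 CPM in CD VEH mouse A and 0.0705 to 0.245 CPM elsewhere. The autophagy receptor gene Bnip3l, through which maturing red cells shed mitochondria, was at 70.8 CPM against 44.5 to 60.9 CPM.

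The embryonic globin genes Hba-x and Hbb-bh2 had no counts in any mouse, which allows up to 3 counts in each library, and Hbb-y and Hbb-bh1 reached 0.012 and 0.0924 CPM. The minor adult genes Hbq1a and Hbq1b were highest in CD VEH mouse A, at 0.241 and 0.446 CPM. Myoglobin (Mb), the oxygen store of heart muscle, was at 9571 CPM in that mouse and 8053 to 10329 CPM in the others. Of 9 haem synthesis enzymes, Alas2 alone was highest in CD VEH mouse A, and the other 8 summed to 347 CPM there against 336 to 420 CPM in the other mice.

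Marker lists of other blood cells did not all follow the globins. The platelet markers summed to 35.04 CPM in CD VEH mouse A and 11.9 to 22.7 CPM in the other mice, and 9 of 10 were highest there. The neutrophil markers summed to 15.4 CPM against 3.02 to 9.37 CPM, with 5 of 9 highest there, and the granule genes of their precursors, Ngp, Camp and Ltf, reached no more than 0.0704 CPM. The lymphocyte, monocyte, macrophage and endothelial sums were highest in WT JZL184 mouse B, at 5.32, 85.3, 579 and 905 CPM, beside 2.82, 59.8, 374 and 818 CPM in CD VEH mouse A. F13a1 made up most of the monocyte sum, at 76.1 CPM in WT JZL184 mouse B and 53.6 CPM in CD VEH mouse A. Of the 5 monocyte markers 2 were highest in CD VEH mouse A, Chil3 (0.241 CPM, at most 0.223 elsewhere) and Plac8 (0.615 CPM, at most 0.587 elsewhere). No lymphocyte, macrophage or endothelial marker was highest in that mouse. How far blood content accounts for the globin levels was not tested.

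**Figure D3:**
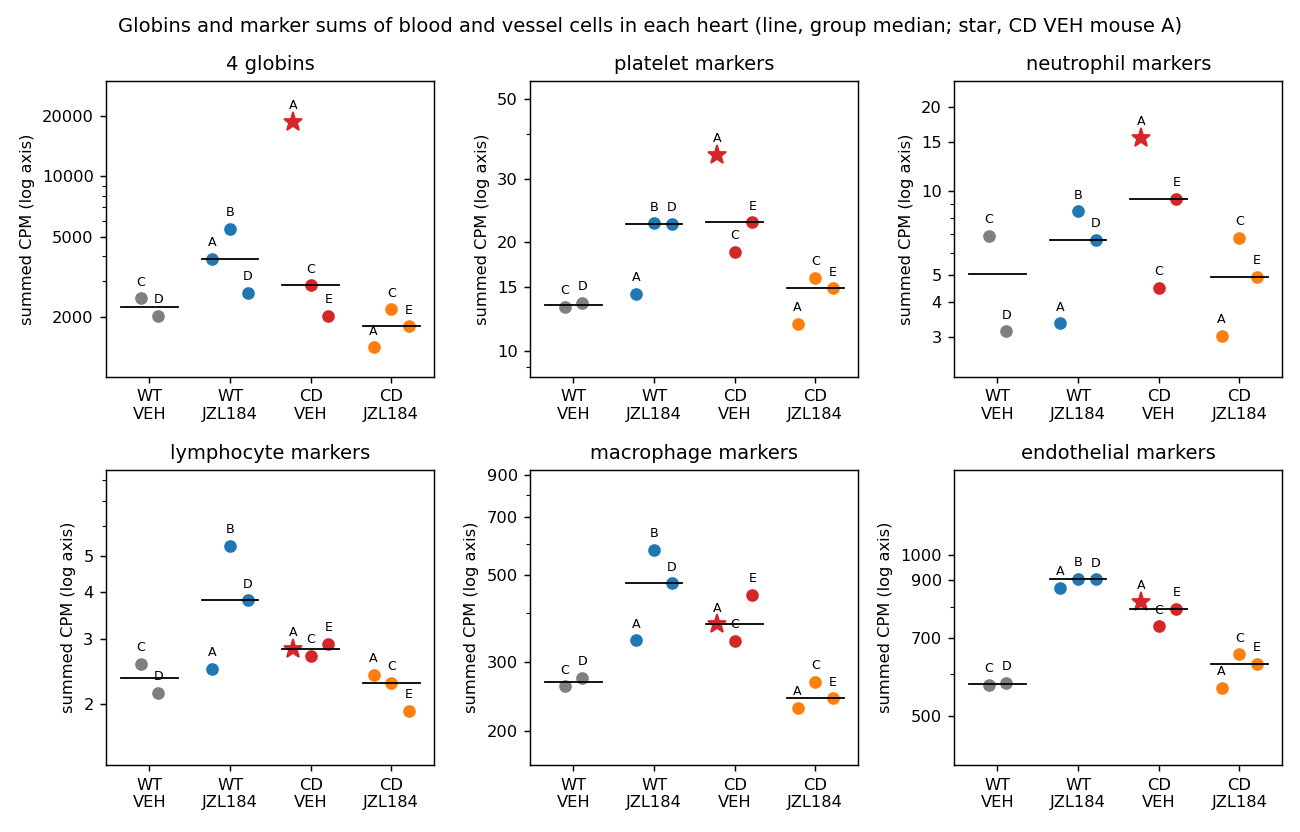
Summed CPM (log axis) of the 4 globin genes and of 5 marker lists in each heart, by group, with mice as points, the group median as a line and CD VEH mouse A as a star. That mouse is highest in globins, platelet and neutrophil markers and lies inside the range of the other mice in lymphocyte (2.82 CPM), macrophage (374 CPM) and endothelial (818 CPM) markers.

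The comparisons between groups used edgeR's quasi-likelihood test over the 11319 genes, with Benjamini-Hochberg adjusted p-values and a call at an adjusted p below 0.05. Slc4a1 was tested only in a fit without the filter. With all mice, CD VEH against WT VEH, which asks for the effect of the deletion, gave 0 calls among the 5 tested genes, whereas 30.4% of all tested genes were called. The log2 fold-changes were 1.71 ± 0.72 (SE) for Hba-a1, 1.77 ± 0.73 for Hba-a2, 1.83 ± 0.78 for Hbb-bs, 1.97 ± 0.82 for Hbb-bt and 1.75 ± 0.81 for Alas2, with adjusted p-values of 0.0842 to 0.118. DESeq2 also called 0 of them (34.6% of all genes), and 4 had an unadjusted p below 0.05 in edgeR. Without CD VEH mouse A the values were 0.13, 0.19, 0.06, 0.12 and -0.14, with 0 calls where 17.0% of genes were called, so the sign of Alas2 turned. Without CD VEH mouse C or E, which raises the weight of mouse A, 4 and 5 genes were called, where 31.2% and 17.5% of all genes were.

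CD JZL184 against CD VEH asks what the compound changed in mice with the deletion. All 5 tested genes were lower in CD JZL184, where 17.0% of all tested genes were called lower and 33.8% were called at all. The log2 fold-changes were -2.05 ± 0.63 (SE) for Hba-a1, -2.07 ± 0.64 for Hba-a2, -2.17 ± 0.68 for Hbb-bs, -2.28 ± 0.71 for Hbb-bt and -2.18 ± 0.71 for Alas2, with adjusted p-values of 0.0276 to 0.0348. Slc4a1 fell by 2.65 ± 0.80 on the log2 scale in the fit without a filter (adjusted p = 0.0321), where 18.2% of the genes in that fit were called. The call of Slc4a1 was lost in the same fit without CD VEH mouse A (-0.23 ± 0.43, adjusted p = 0.797). DESeq2 called all 5 tested genes with all mice (adjusted p-values 0.0225 to 0.0293), where it called 37.5% of all genes. In edgeR the calls of these 5 rested on CD VEH mouse A. Without it the log2 fold-changes were -0.47, -0.48, -0.40, -0.43 and -0.28 (adjusted p-values 0.221 to 0.48), with 0 calls by edgeR at either an adjusted or an unadjusted p below 0.05, where 18.5% of all genes were called. The calls were also lost without CD JZL184 mouse A (0 of 5, against 21.6% of all genes) or E (0 of 5, against 19.0%), and 1 of 5 was called without CD JZL184 mouse C (26.6% of all genes). They were lost as well with robust estimation of the spread (0 of 5, against 33.7%). The CPM ranges of the groups overlapped in each of the 6 genes.

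WT JZL184 against WT VEH asks what the compound changed without the deletion. With all mice 0 of the 5 genes were called, by edgeR as by DESeq2, against 29.4% and 33.2% of all genes, and none had an unadjusted p below 0.05 in edgeR. The log2 fold-changes were 0.84 ± 0.70 (SE) for Hba-a1, 0.87 ± 0.70 for Hba-a2, 0.80 ± 0.74 for Hbb-bs, 0.86 ± 0.78 for Hbb-bt and 0.55 ± 0.79 for Alas2. CD VEH mouse A is in neither group but entered the shared estimate of the spread. Without it the log2 fold-changes hardly moved, the SE of Hba-a1 was 0.27, and 3 genes were called higher, Hba-a1 (adjusted p = 0.0431), Hba-a2 (adjusted p = 0.0494) and Hbb-bs (adjusted p = 0.0485), where 14.4% of genes were called higher and 26.8% at all. Hbb-bt (adjusted p = 0.0582) and Alas2 (adjusted p = 0.162) were not called. In these 3 genes every WT JZL184 mouse was above both WT VEH mice, as in 27.4% of all tested genes. With all mice and the column letter as a block, given further below, the fold-changes of Hbb-bs, Hbb-bt and Alas2 were negative instead.

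CD JZL184 against WT JZL184 compares the genotypes under the compound. With all mice the log2 fold-changes were -1.18 ± 0.61 (SE) for Hba-a1, -1.17 ± 0.62 for Hba-a2, -1.13 ± 0.66 for Hbb-bs, -1.18 ± 0.69 for Hbb-bt and -0.98 ± 0.70 for Alas2, and 0 of 5 were called by edgeR or DESeq2 (adjusted p-values 0.145 to 0.286 in edgeR, none with an unadjusted p below 0.05), against 38.3% of all genes in edgeR and 41.4% in DESeq2. In all 5 genes every CD JZL184 mouse was below every WT JZL184 mouse, which held for 24.3% of all tested genes. Without CD VEH mouse A all 5 were called lower (adjusted p-values 0.00486 to 0.0127), where 19.0% of genes were called lower and 36.3% at all. A fit with only these 6 hearts also called all 5, and 30.2% of all genes.

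The genotype by JZL184 interaction is the log2 fold-change of the compound in CD mice minus that in WT mice. With all mice all 5 genes were called lower, where 26.2% of genes were called lower and 51.5% at all, at -2.89 ± 0.95 (SE) for Hba-a1, -2.94 ± 0.96 for Hba-a2, -2.97 ± 1.01 for Hbb-bs, -3.15 ± 1.06 for Hbb-bt and -2.73 ± 1.07 for Alas2 (adjusted p-values 0.0231 to 0.0498). Without CD VEH mouse A the 4 globin genes were still called lower, at -1.31 ± 0.38, -1.36 ± 0.41, -1.20 ± 0.37 and -1.301 ± 0.43 (adjusted p-values 0.017 to 0.0288), and Alas2 was not (-0.83 ± 0.39, adjusted p = 0.105), where 23.0% of genes were called lower and 45.6% at all. DESeq2 called the 4 globin genes and not Alas2 (adjusted p = 0.0559), where it called 53.2% of all genes. Without WT VEH mouse C or D 0 of 5 were called (40.4% and 41.2% of all genes), without CD JZL184 mouse A 2 (46.0%) and without WT JZL184 mouse B 3 (48.1%). Robust estimation left 0 calls, against 51.3% of all genes. These comparisons share groups and are not independent of each other.

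**Figure D4:**
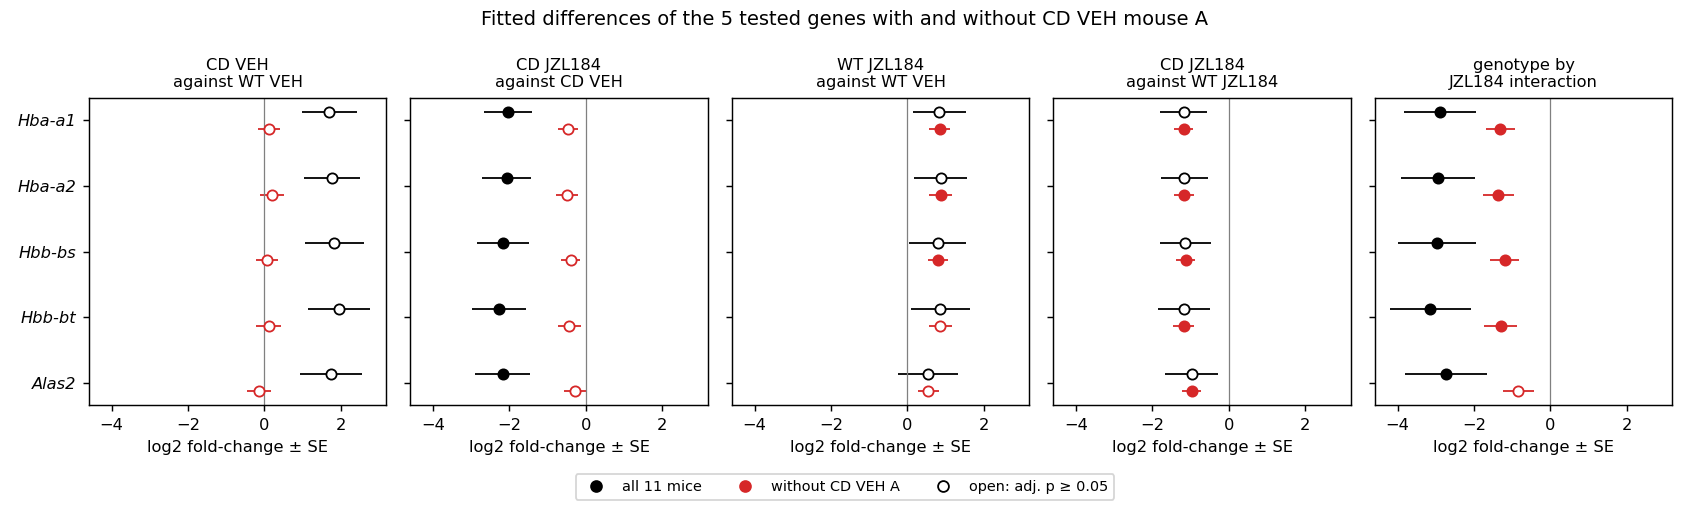
Log2 fold-changes (points) with their SE (bars) of the 5 tested genes in the 5 comparisons, in black with all 11 mice and in red without CD VEH mouse A, filled where the adjusted p was below 0.05. Leaving out that mouse moves Hbb-bs from 1.83 to 0.06 in CD VEH against WT VEH and from -2.17 to -0.40 in CD JZL184 against CD VEH, and leaves it near 0.80 and -1.13 in the comparisons that do not hold the mouse.

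Each near-identical pair was also summed before the fit. Hba-a1 plus Hba-a2 had a log2 fold-change of -2.06 ± 0.63 (SE, adjusted p = 0.0276) and Hbb-bs plus Hbb-bt of -2.19 ± 0.68 (adjusted p = 0.0286) in CD JZL184 against CD VEH. In WT JZL184 against WT VEH the sums stood at 0.86 ± 0.70 (adjusted p = 0.366) and 0.81 ± 0.75 (adjusted p = 0.428). With CD VEH mouse A left out, the sums were at -0.48 ± 0.28 (adjusted p = 0.232) and -0.40 ± 0.26 (adjusted p = 0.288) for CD JZL184 against CD VEH. Both sums were then called higher in WT JZL184 than in WT VEH (adjusted p-values 0.0477 and 0.0498).

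Of the 5 genes most like the globins, Isg20 and Ube2l6 were called with all mice, in each case in the 2 comparisons with CD VEH and for the interaction, where 30.4%, 33.8% and 51.5% of all genes were called. Isg20 was higher in CD VEH than in WT VEH (log2 fold-change 1.49 ± 0.53, adjusted p = 0.0497) and lower in CD JZL184 than in CD VEH (-1.56 ± 0.45, adjusted p = 0.0221), and without CD VEH mouse A it was called in neither (adjusted p-values 0.135 and 0.0726). Ube2l6 changed by 1.301 ± 0.45 and -1.39 ± 0.39 (adjusted p-values 0.0461 and 0.0184), and without that mouse by 0.43 ± 0.13 and -0.52 ± 0.12 (adjusted p-values 0.0454 and 0.0189), so that both calls held at a smaller size. The interaction was called for both genes with all mice (adjusted p-values 0.016 for Isg20 and 0.0175 for Ube2l6) and with that mouse left out (0.00482 and 0.0011). With it left out, both were also called higher in WT JZL184 than in WT VEH (0.0247 and 0.0115) and lower in CD JZL184 than in WT JZL184 (0.00731 and 0.00231). Bpgm, Tent5c and Mkrn1 passed the test in none of the 5 comparisons with all mice.

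Genes that handle haem and iron were higher or lower in only part of the list. Of 11 tested genes for the uptake and breakdown of haem and iron, 4 were higher and 1 lower in CD VEH against WT VEH (median log2 fold-change 0.20, against 0.01 over all genes), where 30.4% of all genes were called. In CD JZL184 against CD VEH 1 was higher and 5 were lower (-0.20, against -0.0024), where 33.8% were called. Leaving out CD VEH mouse A, the counts fell to 1 higher and 0 lower and to 0 higher and 2 lower, with medians of 0.17 and -0.16, and the shares of all genes called fell to 17.0% and 18.5%. Hmox1, which opens the haem ring, was highest in CD VEH mouse E at 32.4 CPM and stood at 9.07 CPM in CD VEH mouse A.

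Blvrb, which reduces biliverdin, and the ferritin light chain gene Ftl1 passed the test in all 5 comparisons with all mice, at 0.61 and 0.62 in WT JZL184 against WT VEH and at -0.56 and -0.67 in CD JZL184 against WT JZL184. With CD VEH mouse A left out, Blvrb was called neither between the VEH groups (0.35, from 0.45 with all mice, adjusted p = 0.0792) nor between the CD groups (-0.30, from -0.40, adjusted p = 0.0888). Ftl1 was not called between the VEH groups (0.41, from 0.46, adjusted p = 0.0953), and all of these fold-changes kept their direction. Of 9 haem synthesis enzymes, Alas2 included, 1 was higher and 2 lower in CD VEH against WT VEH, and 1 higher and 2 lower in CD JZL184 against CD VEH. These counts are near the shares of all genes called, 30.4% and 33.8%. With that mouse left out they were 0 and 2, and 1 and 0, beside 17.0% and 18.5%. Cpox passed in all 5 comparisons with and without the mouse, at -0.44 for CD VEH against WT VEH, and at 0.36 for CD JZL184 against CD VEH. Alas1, the form of the first enzyme used outside red cells, was at -0.44 for CD VEH against WT VEH and -0.46 in WT JZL184 against WT VEH.

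Of 8 tested genes of the erythroid membrane and skeleton, 3 were lower and 0 higher in CD VEH against WT VEH (median -0.16), beside 30.4% of all genes called. In CD JZL184 against CD VEH 2 were higher and 0 lower (median 0.18), beside 33.8% of all genes called. Sptb, a spectrin gene, was at -0.59 and 0.67 with all mice and at -0.54 and 0.63 without CD VEH mouse A. Leaving out that mouse gave the same counts, where 17.0% and 18.5% of all genes were called, but not the same genes: between the CD groups Tmod1, a tropomodulin gene, was then not called (adjusted p = 0.0584, from 0.0142), and Epb41, for the skeletal protein 4.1, was (adjusted p = 0.0466, from 0.162).

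Of 16 tested genes of erythroid transcription and maturation, 4 were higher and 2 lower in CD VEH against WT VEH (median 0.23) and 2 were higher and 4 lower in CD JZL184 against CD VEH (median -0.28), shares near those of all genes called, 30.4% and 33.8%. With that mouse left out 15 were tested, of which 1 was higher and 2 lower (median 0.012) and 3 were higher and 2 lower (median -0.069), where 17.0% and 18.5% of all genes were called. Tal1, an erythroid and endothelial transcription factor, was at 0.44 and -0.47, and without that mouse it was called between the CD groups (-0.39, adjusted p = 0.0379) but not between the VEH groups (0.37, adjusted p = 0.0644). Of the 9 other globin genes 2 were tested, and in both comparisons neither was called.

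Vessel and macrophage genes also moved between the groups. In WT JZL184 against WT VEH, 7 of 7 macrophage markers and 6 of 6 endothelial markers were higher, with medians of 0.81 and 0.62, where 29.4% of all genes were called, and in CD JZL184 against WT JZL184 all of these genes were lower, with medians of -0.91 and -0.54, where 38.3% were called. Both counts were the same without CD VEH mouse A. In CD JZL184 against CD VEH 7 of 7 and 5 of 6 were lower, and 5 of 7 and 4 of 6 without that mouse, where 33.8% and 18.5% of all genes were called. In CD VEH against WT VEH 5 of 7 and 5 of 6 were higher, and 1 of 7 and 5 of 6 without it, where 30.4% and 17.0% were called. The median log2 fold-change of the macrophage markers in that comparison was 0.52 with all mice and 0.55 without it, and in CD JZL184 against CD VEH it was -0.68 and -0.66, so that these calls were lost at fold-changes of about the same size. Of 8 cardiomyocyte markers, 0 were higher and 4 lower in WT JZL184 against WT VEH, and 4 were higher and 1 lower in CD JZL184 against WT JZL184. Of 3 tested platelet markers 1 was higher and 0 lower in WT JZL184 against WT VEH. Among them, Itgb3 passed the filter only with CD VEH mouse A in the table, so 2 were tested without that mouse. Pf4 was at 0.89 in WT JZL184 against WT VEH and at -1.04 in CD JZL184 against CD VEH. Of 3 tested monocyte markers 1 was higher in WT JZL184 against WT VEH and 2 were lower in CD JZL184 against WT JZL184. The single atrial marker tested was called in no comparison, and no neutrophil or lymphocyte marker passed the filter. Their part in the globin differences was not tested.

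With the log2 summed globin level of each heart as a term in the model, fewer of all tested genes were called. The number went from 3440 to 1738 in CD VEH against WT VEH, from 3831 to 1145 in CD JZL184 against CD VEH, from 3332 to 2184 in WT JZL184 against WT VEH, from 4331 to 2737 in CD JZL184 against WT JZL184 and from 5828 to 3720 for the interaction. Nearly all of these were also called without the term, 1719, 1138, 2168, 2706 and 3682 of them. Without CD VEH mouse A and without the term, 1930, 2098, 3030, 4111 and 5159 genes were called. With that mouse left out and the term added the numbers were 1483, 145, 99, 23 and 1505, but the globin level of these hearts differs between the groups, so the term and the groups cannot be told apart in full.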

How the data were processed

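RNA from the hearts of 11 mice was sequenced, and the authors deposited 1 table of estimated counts per gene, made with Salmon 0.7.2 against mouse transcripts and summed to genes. Of the values, 55.1% are not whole, and these expected counts were rounded before testing. The gene identifiers of the 6 members carry the same version in GENCODE M21, which is on GRCm38 (22238 of 22608 identifiers matched). Of all columns, 0 lacked a group. Whether mice shared a litter or extraction is not given in the sources used here, so p-values measure the spread between these samples.

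Genes whose mean log2 CPM reached 1 were tested in 1 fit over 4 groups with edgeR 4.0.16 (TMM scaling, quasi-likelihood test, Benjamini-Hochberg adjustment) in R 4.3.3. The fit was also run on simulated data, and the outcome is not reported here. DESeq2 1.42.0 and other scalings, filters and left-out mice were alternatives. Permutation tests were written in Python 3.11.15 with ranks from scipy 1.17.1, and figures used matplotlib 3.10.9. The members and the gene lists were chosen with earlier results of these data known. The text names the 6 members, list genes called or highest in CPM, and the 10 genes most and the 5 least correlated within groups with the summed globin level. Further list genes, such as Klf1, Epor, Ngp and Myl7, are named as examples. Ndufaf3, Cryl1 and Rtp3 are named for their r without CD VEH mouse A. Genes singled out for their level in CD VEH mouse A were chosen after their values were seen. Some genes of the lists are not reported here by name.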

Additional observations from a re-analysis of the deposited data

Results flagged for a closer look

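The response to JZL184 was called different between CD and WT mice for the 5 tested genes by the interaction term of edgeR's quasi-likelihood fit with all mice, where 51.5% of all genes were called and 26.2% were called lower. The log2 fold-change in CD mice minus that in WT mice was -2.89 for Hba-a1 (adjusted p = 0.0236), -2.94 for Hba-a2 (adjusted p = 0.0231), -2.97 for Hbb-bs (adjusted p = 0.0284), -3.15 for Hbb-bt (adjusted p = 0.027) and -2.73 for Alas2 (adjusted p = 0.0498). DESeq2 did not call Alas2 (adjusted p = 0.0559), and 0 of 5 were called with robust estimation, without WT VEH mouse C or without WT VEH mouse D. With CD VEH mouse A left out, these differences were -1.31, -1.36, -1.20, -1.30 and -0.83, and the last was not called (adjusted p = 0.105).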

How the results depend on the processing

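All 15 pairs of members stayed correlated under each alternative run. Summing near-identical copies left 3 rows to test, and all 3 were called for the interaction and for CD JZL184 against CD VEH. Robust estimation gave 0 calls in both, and the cause was not tested. Fitting only the groups compared gave 5 calls in CD JZL184 against WT JZL184. With single mice left out, the calls ranged from 0 to 5 in CD VEH against WT VEH, 0 to 5 in CD JZL184 against CD VEH, 0 to 3 in WT JZL184 against WT VEH, 0 to 5 in CD JZL184 against WT JZL184 and 0 to 5 for the interaction. Alas2 in CD VEH against WT VEH ranged from -0.14 without CD VEH mouse A to 2.23 without CD VEH mouse E. Of the single-gene fold-changes under the other settings, 223 kept their side of the threshold, 5 passed it, 24 fell below it and 3, given below for the letter as a block, were reversed. With single mice left out, 218 kept their side, 17 passed the threshold, 39 fell below it and 1 was reversed, the value of Alas2 given above.

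Over all genes, leaving out each mouse in turn, an alternative chosen after seeing the data like the globin term and the summed copies and the unfiltered fit without CD VEH mouse A, gave 385 to 4201 calls in CD VEH against WT VEH, 2038 to 4655 in CD JZL184 against CD VEH, 558 to 4487 in WT JZL184 against WT VEH, 2957 to 4873 in CD JZL184 against WT JZL184 and 4579 to 6412 for the interaction. The lowest counts of 385 and 558 were those without WT VEH mouse C. With the globin level as a term and all mice, 1738, 1145, 2184, 2737 and 3720 genes were called in the same order, against 3440, 3831, 3332, 4331 and 5828 without it, and with the term and without CD VEH mouse A 1483, 145, 99, 23 and 1505. DESeq2 with and without its filter on outlying counts, the latter also chosen after seeing the data, gave the same adjusted p-values for the members. The columns carry a letter that no label ties to a numbered mouse, and whether the letters pair the mice is not known. The deviations of CD VEH and CD JZL184 mice A, C and E from their group means correlated at 0.0357, -0.102 and -0.00145 over the tested genes. Over all pairs of mice that share a letter, r ran from -0.253 (C, WT VEH with CD JZL184) to 0.314 (A, WT JZL184 with CD JZL184). With the letter as a replicate block, also chosen after seeing the data and with 3 residual degrees of freedom, 0 members were called in each of the 5 comparisons, and 2401, 3915, 591, 1182 and 4556 genes were. In WT JZL184 against WT VEH, Hbb-bs, Hbb-bt and Alas2 then stood at -0.13, -0.086 and -0.37. With 2 WT VEH mice and 19 to 66 counts of Slc4a1 in 10 hearts, small differences were not detectable.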

Other observations

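When CD VEH mouse A was left out, the 3 genes most like the summed globin level within groups were Ndufaf3 (r = 0.982), Cryl1 (r = 0.978) and Rtp3 (r = 0.950), over 10 mice. With all 11 mice r was -0.118, 0.402 and 0.201 for them. Isg20 and Bpgm followed at ranks 4 and 5, and were at ranks 1 and 2 with all mice.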
